A study of Mus musculus with 15 samples.

Results

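The effect of losing the glucocorticoid receptor (GR) on hippocampal transcripts was measured by comparing 7 arrays of mice without GR with 8 arrays of mice with GR, adjusted for whether the mineralocorticoid receptor (MR) was present. All 15 arrays of the series entered the comparison. Of 22872 genes tested, 330 passed the test and also separated arrays with and without GR completely, once among mice with MR and once among mice without it. These 330 genes, which followed GR whatever the MR status, are described here. They comprised 225 genes with a symbol (170 higher and 55 lower without GR) and 105 known only by a probe or accession name.

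GR and MR are nuclear receptors that bind the same corticosteroid hormones, MR with the higher affinity, and the hippocampus is rich in both. After binding hormone they enter the nucleus, where they raise or lower transcription at DNA elements that both receptors can recognise. GR is found in neurons and glia, while MR in the brain is concentrated in limbic neurons. Classical corticosteroid-induced genes include Fkbp5, Sgk1, Tsc22d3 and the metallothionein Mt1.

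The mice were C57BL/6 males of about 2.5 months, and RNA came from the whole hippocampus of both hemispheres. The 4 dflox arrays were from controls with floxed GR and MR alleles and, as the design is read here, no Cre. The other groups carried Emx1-Cre, which recombines in the progenitors of forebrain excitatory neurons and of part of the glia: GREmx1-cre (4 arrays) lacked GR, MREmx1-cre (4 arrays) lacked MR, and GRMREmx1-cre (3 arrays) lacked both. By the same reading, GREmx1-cre mice had no floxed MR allele and MREmx1-cre mice no floxed GR allele, unlike dflox. Thus GREmx1-cre differed from dflox in GR, in Cre and in the MR allele, whereas GRMREmx1-cre and MREmx1-cre both carried Cre and differed in GR and the floxed GR allele. Interneurons, microglia and vessels arise outside the Emx1 lineage and would keep both receptors.

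Levels are given as log2 intensity relative to the array's own 75th percentile, so that a gene at that percentile has the level 0, and differences as log2 fold change without GR relative to with GR, ± SE. Every adjusted p is from limma, after Benjamini-Hochberg adjustment over all 22872 genes, and a gene is said to rise or fall only where it was at most 0.05. That percentile was at an intensity of 821 to 1027 on the 15 arrays, where 28092 to 30215 of 41174 probes per array were well above background. Defining markers of principal neurons (Neurod6, Prox1, Wfs1), astrocytes (Aqp4, Gja1, Aldh1l1), interneurons, microglia and oligodendrocytes were well above background on all 15 arrays. Each genotype lay alone on 1 of 4 slides, and the effects of both cannot be told apart, although each GR status spanned 2 slides. The labels number the samples of a group without naming their animals, so p-values measure the spread between these samples. In bulk tissue, fewer cells of a type and less RNA per cell cannot be told apart.

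Nr3c1, the gene of GR, was measured first because it checks the labels. Its level was 1.50, 1.79, 1.77 and 1.49 in dflox and -0.66, -0.53, -0.64 and -0.58 in GREmx1-cre. Among mice without MR it was 2.28, 2.16, 2.08 and 2.17 in MREmx1-cre and -0.08, -0.03 and 0.09 in GRMREmx1-cre. Every array without GR was therefore below every array with GR. Nr3c1 fell 4.63-fold, to 21.6% of its level with GR (-2.21 ± 0.0560, adjusted p = 3.48e-11), by -2.24 with MR and -2.18 without it. Its 3 other probes fell by 1.72 to 2.01 on the log2 scale. The Nr3c1 transcript was also higher where MR was lost (0.57, adjusted p = 1.99e-05), so that the doubly deficient mice had more of it than GREmx1-cre mice.

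Nr3c2, the gene of MR, did not pass the test for GR loss (0.14 ± 0.103, adjusted p = 0.544). Its level was -3.45, -3.36, -3.65 and -3.57 in dflox and -3.09, -3.15, -3.06 and -3.04 in GREmx1-cre. With MR deleted it was -3.76, -3.68, -3.59 and -3.46 in MREmx1-cre and -3.71, -3.72 and -4.01 in GRMREmx1-cre. The arrays of GREmx1-cre all stood above dflox, whereas the ranges of both lines without MR overlapped. The difference between these GR effects was -0.62 (interaction, adjusted p = 0.0394). The 2 other Nr3c2 probes showed no such difference in size, with GR effects of 0.51 with MR and 0.45 without it for one and 0.16 and 0.09 for the other. Over MR loss, the Nr3c2 probes stood at -0.80, -0.41 and -0.40. The files do not say whether any receptor probe lies in the deleted exons, and a probe outside them does not test the deletion.

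Across all genes, GR loss raised 677 genes (2.96% of genes tested) and lowered 129 (0.564%), together 806 (3.52%). Of these, 225 changed at least 1.5-fold and 54 at least 2-fold. The 330 genes that followed GR were 1.44% of genes tested and 40.9% of the calls, 262 higher (1.15%) and 68 lower (0.297%) without GR. Without the demand for an adjusted p, 375 genes (1.64%) separated the arrays the same way in both MR states. The rises among the 330 had a median log2 fold change of 0.45 and the falls one of -0.26, against 0.01 over all genes. Of the 61 with several probes, 52 had all of them moving the same way. Of the 262 rises, 19 were well above background on fewer than 3 arrays with GR (10 on none), and of the 68 falls 3 were so on fewer than 3 arrays without GR, so that these entered the test through the arrays on which they were high. At least 1.5-fold were 79 of the rises and 11 of the falls, and at least 2-fold 29 and 5. The counts moved by more than 1.5 times without 1 of the GRMREmx1-cre arrays: GR loss then called 479 genes without replicate 1 and 462 without replicate 2.

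The GR effects with and without MR come from separate arrays, but their tests share an estimate of each gene's spread. Among the 5718 genes of lowest level, the median GR effect was also above 0 in both MR states, 0.10 with MR and 0.12 without it. The overlap of both lists is therefore a description. GREmx1-cre differed from dflox at 721 genes (3.15% of genes tested) and GRMREmx1-cre from MREmx1-cre at 681 (2.98%). Only 80 genes were called in both with the same direction, 72 up and 8 down, which is 11.1% of the first list and 11.7% of the second, while 18 were called in opposite directions. Of the 721, 62.0% had the same sign in mice without MR, and of the 681, 72.5% had it in mice with MR, compared with 51.8% of all genes. Over all genes the correlation of both effects was 0.20, and it was 0.04 over genes above the median level, as a description across genes, which are not independent replicates and share the arrays. Of the 330 genes, 77 were called in each MR state on its own, and 5 had an effect that differed between them by the interaction test, which called 295 genes (1.29%). These list sizes rested on single arrays: the first was 266 without dflox replicate 3, 469 without dflox replicate 1, and 463, 332 and 324 without GREmx1-cre replicates 1, 3 and 4. The second was 412 without MREmx1-cre replicate 3 and 395, 230 and 372 without GRMREmx1-cre replicates 1, 2 and 3.

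**Figure D1:**
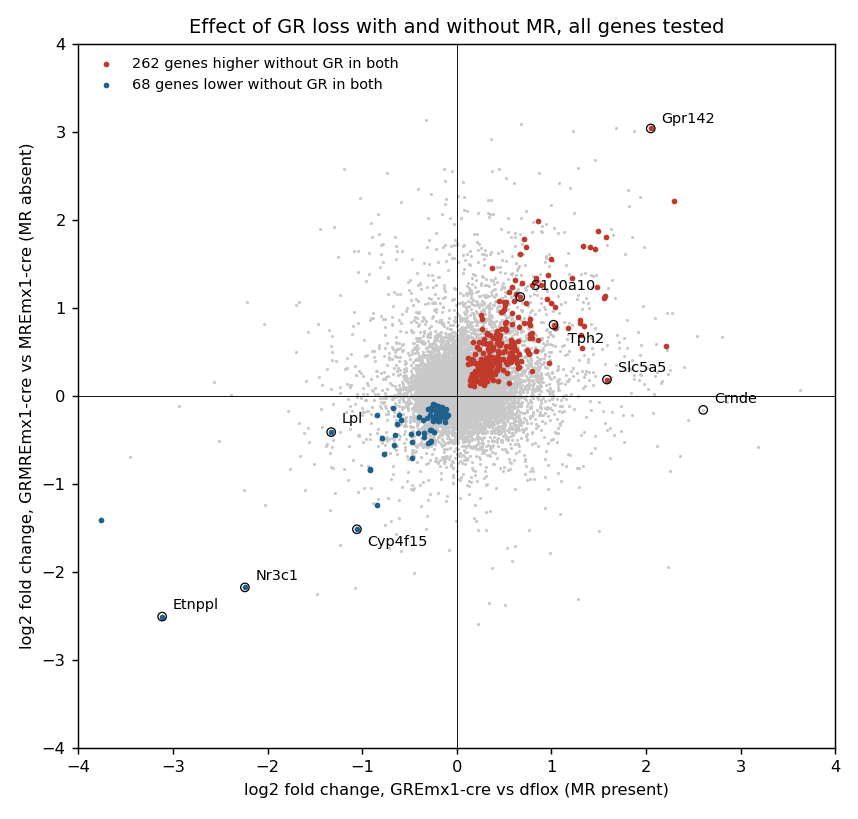
Log2 fold change of GR loss in mice with MR (GREmx1-cre against dflox, horizontal axis) and without MR (GRMREmx1-cre against MREmx1-cre, vertical axis) for each of the 22872 genes tested. Coloured points are the 262 genes higher (red) and 68 lower (blue) without GR in both; Etnppl and Nr3c1 lie far down the diagonal, while Slc5a5 and Crnde lie near the horizontal axis.

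Rises and falls lay at different expression levels. Among genes below the median level, 203 followed GR upwards and 17 downwards, while above it there were 59 and 51. Median GR effects in 4 equal groups of genes from lowest to highest level were 0.12, 0.03, -0.01 and -0.01. On probes that were not well above background, the median level ran from -8.38 to -8.11 in dflox, -8.37 to -7.73 in GREmx1-cre, -8.45 to -8.33 in MREmx1-cre and -8.34 to -8.26 in GRMREmx1-cre. Dim probes thus read higher on GRMREmx1-cre than on MREmx1-cre arrays, except that GRMREmx1-cre replicate 2 lay below MREmx1-cre replicate 3, and they read highest on GREmx1-cre replicate 1. The part of this shift in the rises of dim genes was not tested. The balance of directions also depended on the scaling: 84.0% of calls were rises with the 75th percentile, but 323 genes rose and 268 fell when arrays were centred on their median, and 307 rose and 114 fell after quantile normalisation. With normexp background correction of the raw signal, only 8 genes were called, 4 in each direction. Nr3c1, Sparc, Tlx2, S100a10, Them4 and Nuf2 were among them, and the other genes named below as rising or falling were not.

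**Figure D2:**
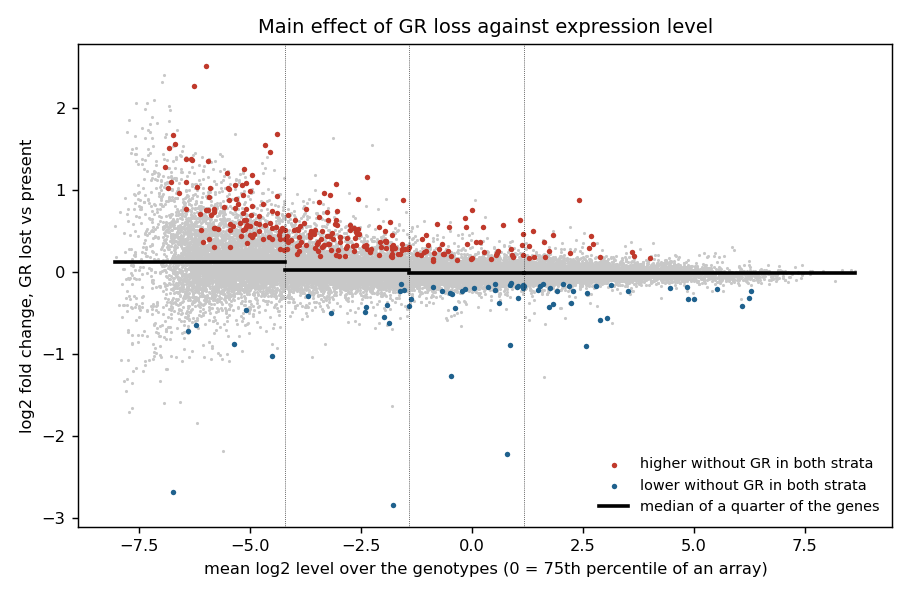
Log2 fold change of GR loss (vertical axis) against mean log2 level (horizontal axis, 0 being the 75th percentile of an array) for the genes tested, with red and blue points for the genes that followed GR and black lines for the median of each of 4 level groups. Red points crowd the low levels, where the median of the lowest group is 0.12, and above the middle dotted line red and blue occur in similar numbers (59 and 51).

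Etnppl, an ethanolamine-phosphate phospho-lyase of astrocytes, had the largest fall of any gene named. Its level was 0.65, -0.42, -0.12 and 0.66 in dflox and -2.74, -2.60, -3.17 and -3.19 in GREmx1-cre. Without MR it was -1.10, -0.52, -0.80 and -1.32 in MREmx1-cre and -4.18, -3.46 and -2.70 in GRMREmx1-cre. The groups with and without GR were more than 1 log2 unit apart in both MR states. Etnppl fell 7.14-fold, to 14.0% (-2.84 ± 0.243, adjusted p = 0.000121), by -3.11 with MR and -2.51 without it, and it also fell with MR loss (-0.85, adjusted p = 0.0296). The difference between GR and MR effects was -1.99 (adjusted p = 0.00260). Of 17 genes of ethanolamine phospholipid metabolism, Etnppl alone was called. The list had a median of -0.03, against 0.01 over all genes.

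Cyp4f15, a cytochrome P450 of fatty acid and eicosanoid hydroxylation, had the next largest fall of the genes named after Etnppl and Nr3c1. It stood at 0.30, -0.16, -0.01 and 0.37 in dflox and -1.12, -0.85, -0.87 and -0.88 in GREmx1-cre. In MREmx1-cre it was -0.11, 0.44, 0.38 and 0.10, and in GRMREmx1-cre -1.56, -1.21 and -1.17. The ranges of both groups with GR overlapped, and every array without GR lay below them. The fall was 2.41-fold (-1.27 ± 0.121, adjusted p = 0.000233), while MR loss gave -0.13 (adjusted p = 0.51).

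Sparc, a secreted matrix glycoprotein of astrocytes and vessels that antagonises synapse formation, fell to 67.8% (-0.56 ± 0.0817, adjusted p = 0.00347). Its level was 3.67, 3.35, 3.42 and 3.66 in dflox, 2.71, 3.04, 2.89 and 2.85 in GREmx1-cre, 3.06, 3.29, 3.21 and 2.85 in MREmx1-cre and 2.54, 2.65 and 2.76 in GRMREmx1-cre. MREmx1-cre lay between dflox and the doubly deficient mice, and Sparc fell with MR loss as well (-0.33, adjusted p = 0.0135). Fam107a, an actin-associated protein known in mouse as stress-induced, stood at 3.40, 3.18, 3.01 and 3.42 in dflox and 2.72, 2.80, 2.82 and 2.78 in GREmx1-cre. In MREmx1-cre it was 2.86, 3.40, 3.39 and 2.86, and in GRMREmx1-cre 2.45, 2.35 and 2.48. Replicates 1 and 4 of MREmx1-cre lay more than 0.5 log2 units below replicates 2 and 3, yet above all GRMREmx1-cre arrays. Fam107a fell to 66.9% (-0.58 ± 0.0983, adjusted p = 0.00689).

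Mt1, a zinc-binding metallothionein and a classical corticosteroid target, fell to 79.3% (-0.33 ± 0.0467, adjusted p = 0.00326). Its level was 5.20, 5.30, 5.19 and 5.28 in dflox, 4.88, 4.90, 5.01 and 5.04 in GREmx1-cre, 5.01, 5.22, 5.06 and 5.11 in MREmx1-cre and 4.59, 4.76 and 4.79 in GRMREmx1-cre. The change was small but larger than the spread within any group. Aldoc, the brain aldolase of astrocytes, stood at 6.31, 6.25, 6.20 and 6.46 in dflox and 5.91, 6.04, 6.06 and 6.01 in GREmx1-cre. In MREmx1-cre it was 6.11, 6.45, 6.38 and 6.26, and in GRMREmx1-cre 5.68, 5.85 and 5.76. It fell to 75.3% (-0.41 ± 0.0642, adjusted p = 0.00494), with no call for MR loss (-0.11, adjusted p = 0.258).

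The promoters of Mt1 and Sparc are shown because both genes fell with GR loss, without overlap in either MR state, and their upstream sequence holds letters of the corticosteroid response element. Sequences are from RefSeq, assembly GRCm38.p6, from 250 bases before the annotated start up to the start, 5′ to 3′ on the strand of the gene. Mt1 lies on chromosome 8, plus strand (chr8:94178839-94179088), and Sparc on chromosome 11, minus strand (chr11:55420081-55420330). Capitals mark the element in Mt1 and the shorter AGAACA motif, read on either strand, in Sparc.
Mt1: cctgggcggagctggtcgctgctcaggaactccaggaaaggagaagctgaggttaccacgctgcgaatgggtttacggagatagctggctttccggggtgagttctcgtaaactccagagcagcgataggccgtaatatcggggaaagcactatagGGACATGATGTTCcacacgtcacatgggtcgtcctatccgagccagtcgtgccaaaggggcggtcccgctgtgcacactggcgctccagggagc
Sparc: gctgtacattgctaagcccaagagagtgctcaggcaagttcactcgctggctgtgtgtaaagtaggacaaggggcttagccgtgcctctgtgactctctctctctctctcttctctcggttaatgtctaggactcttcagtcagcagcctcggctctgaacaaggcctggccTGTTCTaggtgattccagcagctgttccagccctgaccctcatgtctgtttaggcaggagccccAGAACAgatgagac
The element searched was GNACANNNTGTNC, on both strands over windows of 300 bases that end 50 bases after the start. It was in 47 of the 12673 promoters of tested genes (0.37%), in 1 of 43 promoters of genes that fell with GR loss (Mt1, where it begins 94 bases before the start) and in 1 of 127 promoters of genes that rose. AGAACA was in 13.37% of the promoters of tested genes, in 5 of the 43 and in 22 of the 127. A match of letters is a description and not a binding site.

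Further moderately or highly expressed genes fell with GR loss and separated the arrays in both MR states, although none of them was called in each state on its own. Ccdc153, a coiled-coil protein gene used as a marker of ciliated ependymal cells, fell to 54.2% (-0.88 ± 0.179, adjusted p = 0.0171). In MREmx1-cre its replicates 2 and 3, at 0.53 and 0.56, lay about 1 log2 unit below replicates 1 and 4, at 1.51 and 1.53. These levels lay within the GREmx1-cre range of 0.24 to 0.87, so the separation held within each MR state only. Fzd2, a Wnt receptor, fell by 0.44, Prodh, the mitochondrial proline dehydrogenase, by 0.39, and Acot11, an acyl-CoA thioesterase, by 0.38 on the log2 scale. A second Acot11 probe stood at -0.13, with an unadjusted limma p of 0.291. Gstm3, a glutathione transferase with close paralogues that a probe may not separate, fell by 0.33. Emx2, a forebrain homeobox gene named after its values were seen, fell by 0.33 (adjusted p = 0.0115).

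**Figure D3:**
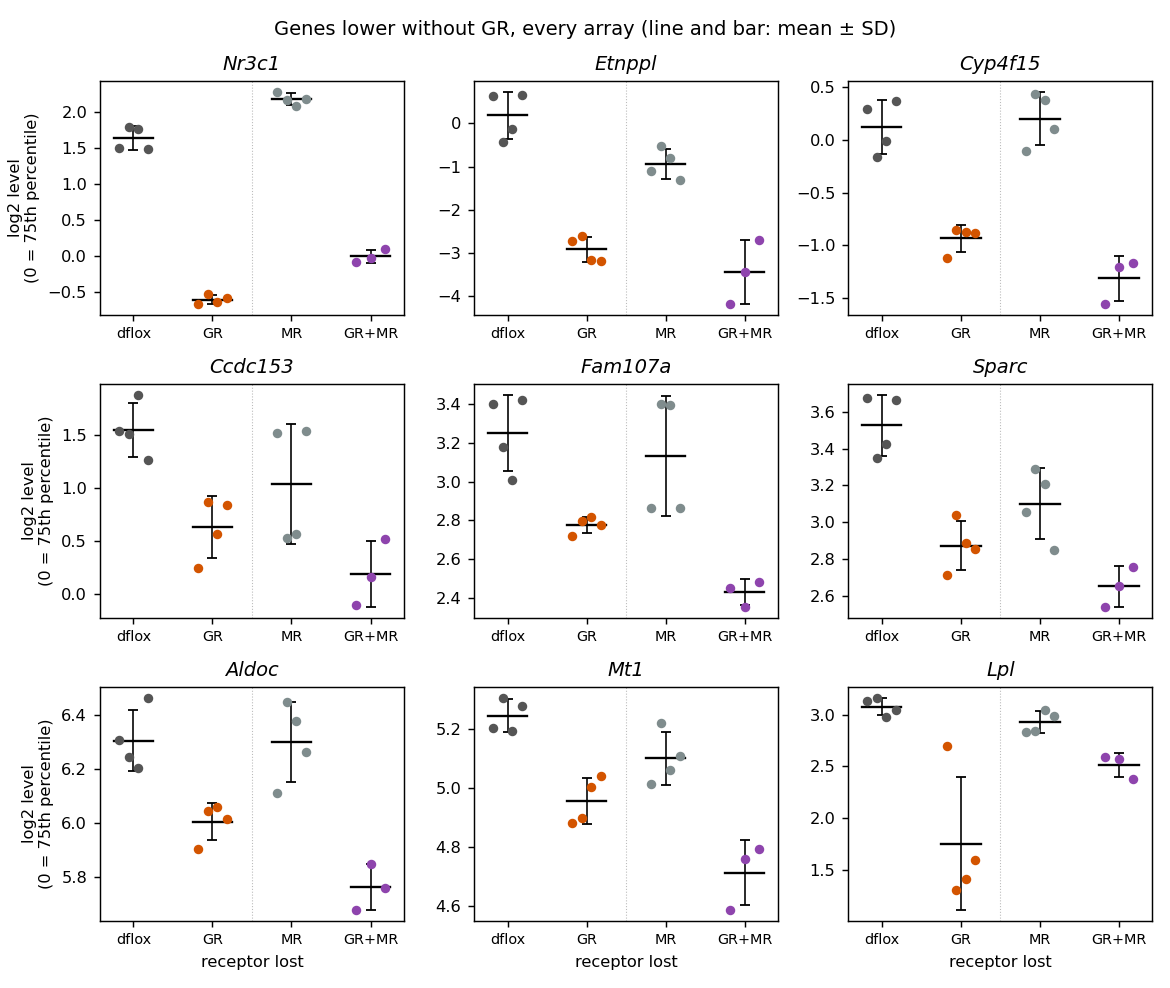
Log2 level (vertical axis, 0 being the 75th percentile of the array) of Nr3c1, Etnppl, Cyp4f15, Ccdc153, Fam107a, Sparc, Aldoc, Mt1 and Lpl on each array (points), with group mean and SD (lines and bars). Groups on the horizontal axis are dflox, GR lost, MR lost and both lost; in each panel the points without GR lie below those with GR of the same MR status, and Lpl shows the widest spread, in GREmx1-cre.

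The rest of the 12 largest falls were dimmer or rested on 1 MR state. Lpl, lipoprotein lipase, which frees fatty acids from lipoproteins, was 3.13, 3.16, 2.98 and 3.04 in dflox and 2.70, 1.31, 1.41 and 1.59 in GREmx1-cre. Without MR it was 2.84, 2.84, 3.05 and 2.99 in MREmx1-cre and 2.59, 2.58 and 2.38 in GRMREmx1-cre. GREmx1-cre replicate 1 lay more than 1 log2 unit above the other arrays of its group, and the separation without MR was narrow. Lpl lies on chromosome 8, as Nr3c2 does, but outside the 200 tested genes nearest to it. A part of alleles linked to Nr3c2 in the Lpl values was not tested. Lpl fell by -0.90 ± 0.204 (adjusted p = 0.0276), by -1.33 with MR, and stood at -0.41 without it (adjusted p = 0.437), a difference that did not pass the interaction test (adjusted p = 0.19). The call was lost when any of dflox replicates 1 to 3, or replicate 3 or 4 of GREmx1-cre, was left out (highest adjusted p = 0.0572) and after quantile normalisation (adjusted p = 0.0509). Heph, a copper-dependent ferroxidase of iron export, fell by 0.62 and Prom1, a membrane protein of progenitors and ependyma, by 0.49, the latter call ending without GREmx1-cre replicate 1 and MREmx1-cre replicate 2 together (adjusted p = 0.0552), and its second probe at -0.20. Apoc3, an apolipoprotein that inhibits Lpl, fell by 0.88 and Gm9895 by 1.03, both at levels of -3.61 or lower on every array, and both pointed the other way with normexp correction.

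Inpp4b and Slc5a5 are neighbours of Nr3c2 on chromosome 8. Inpp4b, a phosphoinositide phosphatase, fell by -0.84 with MR (adjusted p = 0.0144) and stood at -0.21 without it (adjusted p = 0.573), with a second probe at -0.21 for the additive effect, and the iodide symporter gene Slc5a5 stood at 1.59 with MR and 0.19 without it. Their additive effects were -0.55 (adjusted p = 0.0457) and 0.94 (adjusted p = 0.0492), and the Inpp4b call remained in only 2 of 15 fits that left out 1 array (without GREmx1-cre replicates 3 or 4), the Slc5a5 call in 3 (when the array left out was replicate 1 of GREmx1-cre, 4 of MREmx1-cre or 3 of GRMREmx1-cre). Among the 200 tested genes nearest to Nr3c2, GR loss called 16 (8%), and it called 3.23% of all remaining genes that have a symbol. The figures were 48 (24%) against 2.88% for GREmx1-cre and dflox, which differ in the floxed MR allele as the design is read here, and 4 (2%) against 2.76% for GRMREmx1-cre and MREmx1-cre, which do not. Of the 330 genes, 7 lay there (3.5% of the neighbours), among them the endothelin receptor gene Ednra and the peroxiredoxin gene Prdx2. Around Nr3c1, 4 of 200 neighbours were called (2%) and 3 followed GR (1.5%). Effects of GR and of alleles linked to Nr3c2 cannot be told apart in mice with MR.

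S100a10, a calcium-binding protein that partners annexin A2 and is counted among reactive astrocyte genes, had the largest rise among the followers above the median level. It stood at 2.06, 1.94, 2.04 and 1.95 in dflox and 2.70, 2.61, 2.67 and 2.68 in GREmx1-cre. In MREmx1-cre it was 2.18, 1.93, 1.77 and 1.85, and in GRMREmx1-cre 2.94, 3.22 and 3.01. All 7 arrays without GR were above all 8 with GR. S100a10 rose 1.84-fold (0.88 ± 0.0850, adjusted p = 0.000233), while MR loss gave 0.15 (adjusted p = 0.28). Of 16 reactive astrocyte genes tested it was the 1 called, and the list had a median of 0.06. Gfap stood at 0.17, Cd44 at 0.50 and Serpina3n at 0.35, none of them called and all picked after values were seen. Of the 16 genes, 10 stood above 0 and 6 below.

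Them4, a mitochondrial acyl-CoA thioesterase, rose 1.54-fold (0.63 ± 0.0719, adjusted p = 0.00103). Its level was 0.78, 0.79, 0.65 and 0.81 in dflox, 1.40, 1.27, 1.31 and 1.12 in GREmx1-cre, 1.05, 0.79, 0.54 and 0.78 in MREmx1-cre and 1.54, 1.57 and 1.51 in GRMREmx1-cre. Apln, the ligand of the apelin receptor, was 0.33, 0.38, 0.34 and 0.33 in dflox and 0.67, 0.90, 0.81 and 0.72 in GREmx1-cre. Without MR, Apln was 0.62, 0.30, 0.39 and 0.61 in MREmx1-cre and 1.13, 1.17 and 1.34 in GRMREmx1-cre. Both genes had tight dflox groups and wider MREmx1-cre groups, and neither overlapped between GR states of the same MR status. Apln rose 1.48-fold (0.57 ± 0.0697, adjusted p = 0.00185), and its 2 other probes stood at 0.68 and 1.11.

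Ifit3 and Il33 were also among the largest rises above the median level. Ifit3, an interferon-induced antiviral protein, was -0.43, -0.57, -0.53 and -0.24 in dflox and 0.34, 0.16, 0.01 and 0.05 in GREmx1-cre. In MREmx1-cre it was -0.19, -0.69, -0.27 and -0.06, and in GRMREmx1-cre 0.40, 0.81 and 0.73. Ifit3 rose 1.68-fold (0.75 ± 0.108, adjusted p = 0.00347), and its paralogue Ifit3b rose 1.80-fold (0.85, adjusted p = 0.0049), although probes of such close copies may read both. Of 18 interferon and MHC class I genes tested Ifit3 alone was called, where 2.96% of all genes rose, with Ifit1 at -0.24, Ifit2 at 0.15 and Irf7 at 0.20. Il33, an alarmin cytokine of astrocytes and oligodendrocytes, was 1.66, 1.68, 1.76 and 1.48 in dflox and 2.01, 2.11, 2.09 and 1.90 in GREmx1-cre. Without MR it was 1.92, 1.32, 1.20 and 1.81 in MREmx1-cre and 2.07, 2.06 and 2.16 in GRMREmx1-cre. The MREmx1-cre arrays divided into a high pair (replicates 1 and 4) and a low pair (2 and 3), the reverse of Fam107a. Il33 rose 1.37-fold (0.45 ± 0.0997, adjusted p = 0.0256), a call that ended without GRMREmx1-cre replicate 1 or 2 (highest adjusted p = 0.0554) or without GREmx1-cre replicate 1 and MREmx1-cre replicate 2 together (adjusted p = 0.0601). Serpinb1a, an inhibitor of neutrophil proteases, rose by 0.50 (adjusted p = 0.0115), the chitinase-like protein gene Chil1 by 0.54 and the calcium-binding S100a4 by 0.46.

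**Figure D4:**
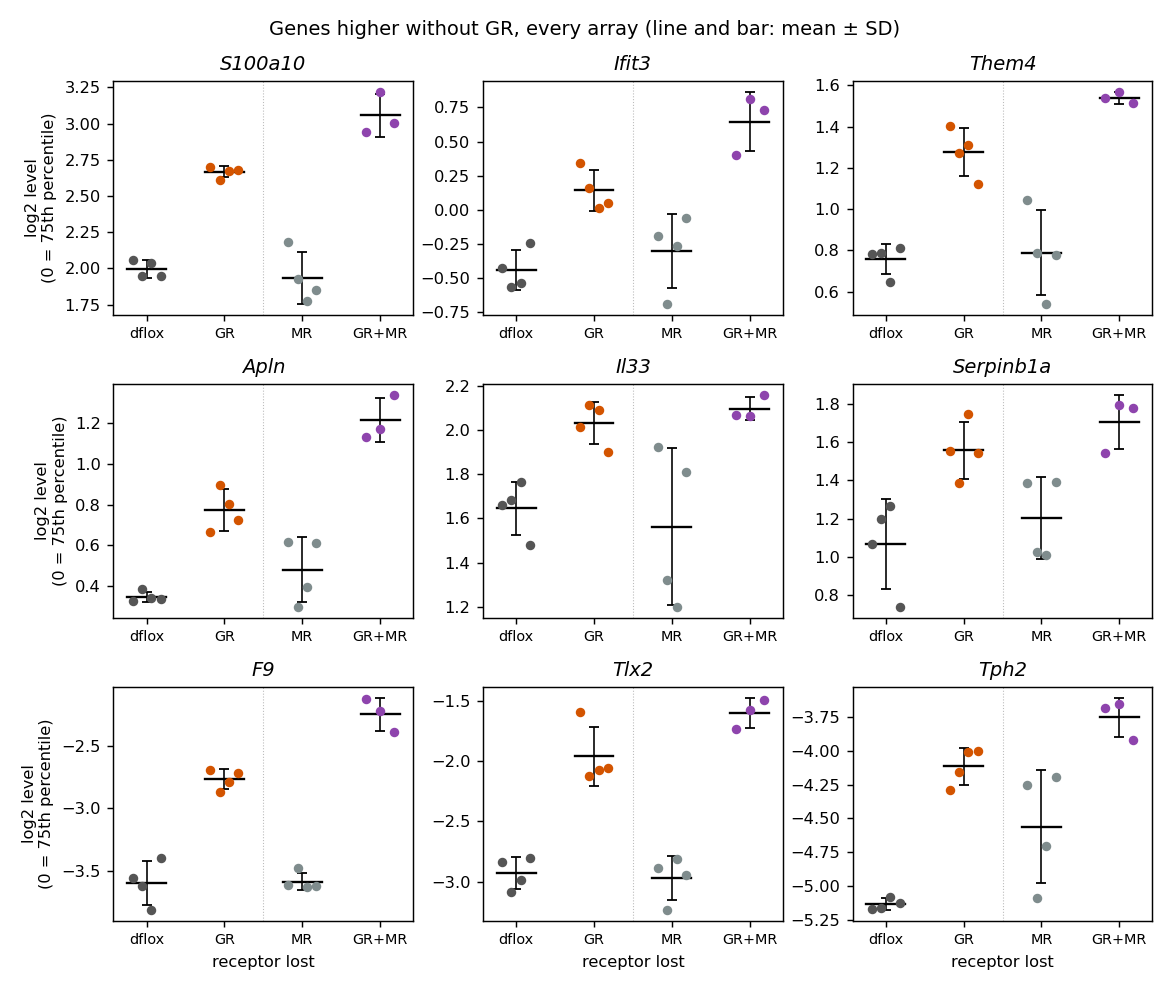
Log2 level (vertical axis, 0 being the 75th percentile of the array) of S100a10, Ifit3, Them4, Apln, Il33, Serpinb1a, F9, Tlx2 and Tph2 on each array (points), with group mean and SD (lines and bars). Groups on the horizontal axis are dflox, GR lost, MR lost and both lost; the points without GR lie above those with GR of the same MR status in each panel, and MREmx1-cre arrays of Il33 and Tph2 spread widely.

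The 12 largest rises among genes well above background on all arrays without GR lay at low levels, between -6.36 and -1.48 on every array. Tlx2, a homeobox gene of neural crest derivatives, was -2.83, -3.08, -2.99 and -2.80 in dflox and -1.59, -2.12, -2.07 and -2.06 in GREmx1-cre. Without MR it was -2.89, -3.24, -2.81 and -2.94 in MREmx1-cre and -1.73, -1.57 and -1.48 in GRMREmx1-cre. It rose 2.23-fold (1.16 ± 0.103, adjusted p = 0.000129). F9, the gene of coagulation factor IX made by liver, was -3.56, -3.62, -3.82 and -3.40 in dflox, -2.69, -2.87, -2.79 and -2.72 in GREmx1-cre, -3.61, -3.48, -3.63 and -3.62 in MREmx1-cre and -2.13, -2.22 and -2.39 in GRMREmx1-cre. For both genes the groups with GR overlapped, and the mean was highest in the doubly deficient mice. F9 rose 2.09-fold (1.07 ± 0.0912, adjusted p = 0.000121). Tph2, the serotonin-synthesising hydroxylase of raphe neurons, rose 1.90-fold (0.92 ± 0.117, adjusted p = 0.00226), and it was the 1 called of 13 serotonin genes tested, with a list median of 0.02. It also rose with MR loss (0.48, adjusted p = 0.0134).

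The others of these 12 were 1700022A21Rik (1.25), the olfactory receptor gene Olfr103 (1.18), Prodh2 (1.10), a hydroxyproline dehydrogenase, the sperm protamine gene Prm2 (1.08), Aknad1 (1.06), Gulo (1.05, with a second probe at 0.61), of vitamin C synthesis, the taste receptor gene Tas2r118 (0.99), Tex44 (0.96) and Slc5a5, all log2 fold changes. For Prodh2 the rise was 0.66 with MR and 1.61 without it (interaction, adjusted p = 0.0466), and its second probe stood at 0.11. The Prm2 call ended without dflox replicate 2 or 3 or GRMREmx1-cre replicate 1 or 2 (highest adjusted p = 0.0563) and after quantile normalisation (adjusted p = 0.0619). Olfactory receptor genes as a family were counted after these values were seen, and 297 of the 300 tested lay below the median level. Of the 300, 42 rose (14.0%, compared with 5.25% in the lowest of the 4 level groups and 2.96% of all genes) and 0 fell. The number that followed GR was 14 (1.44% over all genes), and in the lowest level group 95 of 5718 genes followed it upwards. The median of the 300 was 0.35, compared with 0.12 for that lowest group. A dim gene could enter the test through the 3 GRMREmx1-cre arrays alone, so these counts are a description. Gpr142, a receptor of pancreatic islets named after its values were seen, was well above background on 1 of 4 dflox and 1 of 4 MREmx1-cre arrays but on 3 of 4 GREmx1-cre and all 3 GRMREmx1-cre arrays. Its levels in dflox, -6.32, -8.43, -6.43 and -8.70, reached down to those of probes not well above background, so no fold is given.

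Of the 330 genes, 5 had a GR effect that differed between the MR states by the interaction test. That test called 295 of all 22872 genes (1.29%), so the 5 do not set the 330 apart. Chrdl1, a secreted antagonist of bone morphogenetic proteins that astrocytes release, was -2.52, -2.13, -2.12 and -2.13 in dflox and -1.92, -1.95, -1.79 and -1.75 in GREmx1-cre. Without MR it was -1.79, -1.87, -1.88 and -1.68 in MREmx1-cre and -0.43, -0.24 and -0.38 in GRMREmx1-cre. The ranges with GR lost and with MR lost overlapped, and every array with both lost was more than 1 log2 unit above them. Chrdl1, named after its values were seen, rose by 0.38 with MR and 1.46 without it, a difference of 1.08 (interaction, adjusted p = 0.00453). With normexp correction the interaction called only 1 gene, and its difference was negative. Of the interaction's largest effects, Crnde, a long non-coding RNA gene outside the 330, rose by 2.60 with MR (adjusted p = 4.71e-05) and stood at -0.16 without it. Its mean level was -3.23 in GREmx1-cre, -5.84 in dflox, -4.83 in MREmx1-cre and -4.99 in GRMREmx1-cre. As the design is read here, GREmx1-cre and dflox also differed in the MR allele. For Crnde, effects of GR and of that allele cannot be told apart. Without MR, Olfr1101 rose by 2.11 (adjusted p = 0.00192). Olfr73, Olfr218 and Olfr1044 were not well above background on any MREmx1-cre array, and in GRMREmx1-cre they were at least 2.53-fold, 3.86-fold and 2.64-fold higher. They were well above background on no more than 1 array outside GRMREmx1-cre and entered the test through that group, so these bounds are given as a description. With MR, none of these olfactory receptor genes was called for GR loss, at -0.89 to 0.08. Such a bound sets the mean of the bright group against the higher of the dim probe's own signal and the lowest signal well above background on each array.

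The classical targets of corticosteroids were set beside these genes. Of 34 listed, 31 were tested, 0 rose, and Mt1, Sgk1, Plekhf1 and Mfsd2a fell; the median was -0.12, against 0.01 over all genes, and 24 of the 31 were below 0. At an unadjusted p under 0.05, limma counted 15 of them. The share of all genes under that threshold was not counted, so the 15 are a description. In the MR effect of the same model 13 fell and 0 rose, with a median of -0.26. Over all genes, MR loss called 15.7% (5.57% lower) and GR loss 3.52%. Mt1 alone of the list followed GR in both MR states.

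Sgk1, a corticosteroid-induced kinase, was 3.98, 3.88, 4.10 and 3.31 in dflox and 2.79, 2.87, 2.98 and 3.29 in GREmx1-cre. Without MR it was 2.79, 3.03, 3.49 and 3.11 in MREmx1-cre and 2.65, 2.67 and 2.87 in GRMREmx1-cre. The 3 groups that lacked a receptor overlapped, and dflox was higher except for replicate 4. Sgk1 fell by -0.62 ± 0.141 with GR loss (adjusted p = 0.029) and by -0.50 with MR loss (adjusted p = 0.027). Its GR call was lost in 7 fits, those that left out 1 of replicates 1 to 3 of dflox, 2 or 3 of GREmx1-cre, or 1 or 2 of GRMREmx1-cre. Plekhf1, an endosomal protein gene, fell by -0.65 ± 0.141 (adjusted p = 0.0229). Without GREmx1-cre replicate 1 and MREmx1-cre replicate 2 together, the calls of Sgk1, Plekhf1 and Mfsd2a ended (adjusted p = 0.0654, 0.0681 and 0.101). Mfsd2a, a lysolipid transporter named after its values were seen, fell by -0.44 (adjusted p = 0.0352), a call lost without dflox replicate 1, GREmx1-cre replicate 1, 3 or 4, MREmx1-cre replicate 2 or 3, or any GRMREmx1-cre array.

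Fkbp5, a co-chaperone that restrains GR and is a much-used marker of corticosteroid action, did not pass the test for GR loss (0.03 ± 0.176, adjusted p = 0.952), and its 2 other probes stood at 0.04 and -0.29. It was -1.18, -1.58, -2.10 and -0.88 in dflox and -1.37, -1.03, -1.10 and -0.82 in GREmx1-cre. In MREmx1-cre it was -3.16, -2.77, -2.89 and -2.87, and in GRMREmx1-cre -3.29, -3.17 and -3.33. The levels divided by MR status, with both groups lacking MR below both groups having it, and MR loss gave -1.81 (adjusted p = 1.70e-05). The difference between GR and MR effects was 1.84 (adjusted p = 0.000586). Over all genes, 1717 (7.51%) had GR and MR effects that differed by this test.

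Over all 27 lists of cell types and pathways, 22 of 446 genes tested were called for GR loss (4.93%), compared with 3.52% of all genes. Of 23 astrocyte markers, the water channel gene Aqp4 rose (0.50 ± 0.0753, adjusted p = 0.00414), Aldoc and the connexin gene Gjb6 (-0.41, adjusted p = 0.0258) fell, and the median was -0.02. The Gjb6 call ended without dflox replicate 1, GREmx1-cre replicate 4 or GRMREmx1-cre replicate 1 (highest adjusted p = 0.0559). Of 24 genes of fatty acid and lipoprotein handling, Lpl, Plin4 (-0.70, adjusted p = 0.0465), a lipid droplet protein gene, and Acsl3 (-0.30, adjusted p = 0.0162), an acyl-CoA synthetase gene, fell, with a median of -0.05. The calls of Gjb6, Plin4 and Acsl3 also ended without GREmx1-cre replicate 1 and MREmx1-cre replicate 2 together (adjusted p = 0.0781, 0.111 and 0.0534). Plin4 kept its call in 2 of 15 fits without 1 array (without dflox replicate 2 or MREmx1-cre replicate 1). Of 17 clock genes Per3 rose (0.47, adjusted p = 0.0412), a call kept without dflox replicate 4, GREmx1-cre replicate 1 or 2 or MREmx1-cre replicate 4 and lost in the other 11 fits. Per3 was dim, between -5.66 and -4.44 on every array. Its call also ended after quantile normalisation (0.34, adjusted p = 0.132) and with median scaling (adjusted p = 0.063). The same held with no filter on dim probes, another variance model and slide as a random block (adjusted p = 0.0638, 0.0557 and 0.0629). Of 17 oligodendrocyte genes, the myelin protein gene Mal fell (-0.38, adjusted p = 0.0129). Of 9 thalamus and habenula markers the homeobox gene Irx1 rose (0.46, adjusted p = 0.0235), with a list median of 0.05 and a call that ended without GRMREmx1-cre replicate 2 (adjusted p = 0.0508) and with median scaling (adjusted p = 0.0567).

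Of the homeostatic and activated microglial genes, 2 of 19 and 2 of 18 rose with GR loss (2.96% over all genes), and 17 and 7 rose with MR loss (10.1% over all genes). Of 19 homeostatic microglia markers, the complement gene C1qc (0.25, adjusted p = 0.017) and the lipid receptor gene Trem2 (0.23, adjusted p = 0.0201) rose with GR loss, with a median of 0.06. Both calls ended with median scaling (adjusted p = 0.0747 and 0.0603), and the Trem2 call also without GRMREmx1-cre replicate 2 (adjusted p = 0.052) or without GREmx1-cre replicate 1 and MREmx1-cre replicate 2 together (adjusted p = 0.0552). In the MR effect the list had a median of 0.27. The list's mean level relative to all arrays ran from -0.22 to -0.10 in dflox, -0.16 to -0.05 in GREmx1-cre, 0.08 to 0.14 in MREmx1-cre and 0.16 to 0.32 in GRMREmx1-cre, so it too divided by MR status. Of 18 activated microglia and inflammatory genes, Cst7, a cystatin gene, and Itgax, the gene of the CD11c integrin, rose. Cst7 was -6.31, -6.09, -6.38 and -6.78 in dflox, not well above background on any of these arrays, and -5.85, -5.91, -5.29 and -5.65 in GREmx1-cre. It was -5.71, -6.23, -5.80 and -5.78 in MREmx1-cre and -4.43, -3.85 and -4.00 in GRMREmx1-cre. With MR, Cst7 in GREmx1-cre was at least 1.64 times its dflox level, a difference that did not pass the test (adjusted p = 0.0563), and it rose by 1.78 without MR (adjusted p = 0.000607). Itgax (0.97, adjusted p = 0.0472) kept its call only without dflox replicate 3 or GREmx1-cre replicate 4 among the fits that left out 1 array.

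**Figure D5:**
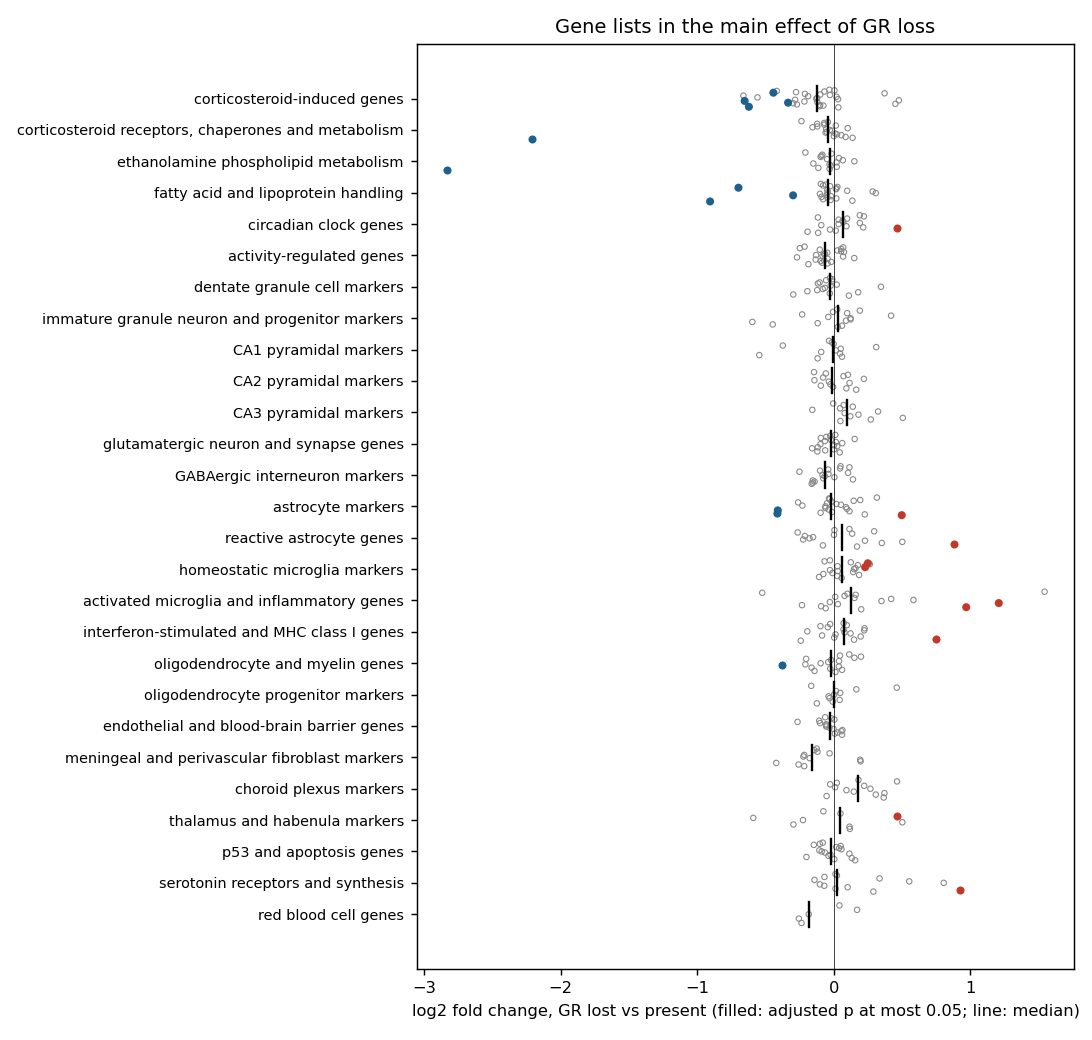
Log2 fold change of GR loss (horizontal axis) for each tested gene of 27 lists (rows), with filled points at an adjusted p of at most 0.05 and a vertical line at the list median. Filled points are few, Etnppl and Nr3c1 lie farthest left, and the lists of neuronal cell types hold none.

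No gene was called among 24 activity-regulated genes, the markers of dentate granule cells (17), CA1 (12), CA2 (14) and CA3 (12) pyramidal cells, interneurons (17), oligodendrocyte progenitors (11), endothelium (16), fibroblasts (12) and choroid plexus (13), 15 genes of immature granule neurons and progenitors, 18 glutamatergic genes, 17 p53 genes and 5 red cell genes. At the 3.52% called over all genes, lists of this size would hold less than 1 call each, so these counts of 0 do not set the lists apart. Counts at limma's unadjusted p under 0.05 ran from 0 (CA2, choroid plexus and red cell genes) to 5 (p53 genes), with no count over all genes to set beside them. In the MR effect of the same model, 10 dentate and 10 CA2 markers fell and 2 and 0 rose. Over all genes, 5.57% fell and 10.1% rose with MR loss. Of CA3 markers 5 fell and 1 rose, and of glutamatergic genes 6 fell and 1 rose. Of CA1 markers 3 fell and 4 rose, and of immature granule neuron and progenitor genes 0 fell and 6 rose. Choroid plexus markers were at -4.22 relative to all arrays on MREmx1-cre replicate 2 and between -0.53 and 1.20 on the other 14 arrays. Leaving out that array together with GREmx1-cre replicate 1, whose dim probes read highest, GR loss called 524 genes and 360 followed GR, a choice made after seeing the data; 244 of the 330 (73.9%) were among the 360. Across 7 settings (the one used here, quantile normalisation, median scaling, another variance model, slide as a random block, equal weights and a replicate block), 131 of the 330 (87 higher, 44 lower) were kept in each, including 10 of the 12 largest falls and 6 of the 12 largest rises. Only quantile normalisation and median scaling changed the levels, so the separation of arrays was fixed in the other settings. Normexp correction, which kept 7 of the 330 (2.1%), is not among these 7 settings. Nor is the demand for a call in each MR state, which kept 77 (23.3%).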

How the data were processed

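Cy3-labelled cRNA of total RNA was hybridised to 1-colour Agilent mouse arrays, per the labels' protocols. The submitters' processing notes name Feature Extraction 12.0 as the scanning software. The deposited processed signal is an intensity in arbitrary units, background-corrected by that software per the file headers, and other flag values (0 or 1) mark spots well above background, saturated or outlying. The value table deposited by the authors held the same intensity at 45018 of 45018 spots on each array.

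Of 45018 spots, 43379 were not controls; their log2 processed signal minus the array's 75th percentile was used, 1281 outlier spots over all arrays were left out, and spots of a probe were averaged (41174 probes; none saturated). Accessions without version were matched to RefSeq (GRCm38.p6) for names: 28223 probes had 1 symbol, 0 several and 12951 none. The array was designed on build mm9, so no gene coordinates are given other than those of RefSeq promoters. Testing covered the 30882 probes that at least 3 arrays held well above background, 1 per gene by highest mean (22872 genes, 15945 with a symbol).

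limma 3.58.1 (R 4.3.3; lmFit, eBayes) fitted GR and MR status as additive factors over all 15 arrays. The effects in each MR state and their interaction came from a group means model over the same arrays. Adjusted p is Benjamini-Hochberg at 0.05 over all genes. A gene followed GR when called and when all arrays without GR lay on the same side of all arrays with GR of the same MR status. The number of arrays limits the precision. The fit was tested on simulated data with known changes.

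Named genes were the receptors, the 12 largest rises and 12 largest falls with a symbol among genes that followed GR and were well above background on all arrays of the brighter status, up to 3 called members of each of 27 lists (446 of 474 genes tested), and the 5 largest interactions. The 12 largest rises and falls above the median level, and Fkbp5, Gpr142, Ifit3b, Chrdl1, Emx2, Mfsd2a and a few list members that were not called, were added after values were seen. Members and lists were chosen with earlier results of these data known. Alternatives were other scalings, background correction, filters, probes, variance models, blocks and left-out arrays. Normexp (offset 50) used the median spot signal, since the files held no mean signal. Counts used Python 3.11.15, and figures matplotlib 3.10.9.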

Additional observations from a re-analysis of the deposited data

Results flagged for a closer look

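In 201 groups of 4 arrays of the genes named, 10 held an array whose gap to its nearest neighbour took up more of the group's range than Dixon's critical value allows; chance flags about 1 in 20 such groups, and groups of 3 were not examined. In dflox, replicate 1 was high for Prom1 (-1.71, others up to -2.23) and low for Chrdl1 (-2.52, others from -2.13), replicate 4 was low for Plekhf1 (-1.74, others from -1.21) and Mal (2.24, others from 2.49), and replicate 3 was low for Them4 (0.65, others from 0.78). In GREmx1-cre, replicate 1 was high for Tlx2 (-1.59, others up to -2.06) and low for Cyp4f15 (-1.12, others from -0.88), and replicate 4 was low for Gstm3 (4.59, others from 4.79). In MREmx1-cre, replicate 2 was high for F9 (-3.48, others up to -3.61) and for Olfr1044 (-7.43, others up to -8.38). These values are log2 levels.

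For 8 of the genes named, the effect of GR loss differed between the MR states by limma's interaction test. Crnde and the 4 olfactory receptor genes were named for this effect, and Chrdl1 after its values were seen. The count of 8 therefore follows from the choice of genes and is not a share to set beside the 1.29% called over all genes. The difference, without MR minus with MR, was -2.76 for Crnde (adjusted p = 0.00259), 1.08 for Chrdl1 (0.00453), 2.04 for Olfr1101 (0.0272), -0.62 for Nr3c2 (0.0394) and 0.95 for Prodh2 (0.0466). The measured difference was 2.31 for Olfr1044, 2.33 for Olfr218 and 2.70 for Olfr73; these were well above background on no more than 1 array outside GRMREmx1-cre and entered the test through that group, so their values are a description only. The calls for the olfactory receptor genes were lost in 2 to 9 of the 15 fits that left out 1 array.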

How the results depend on the processing

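The processed signal of dim probes limits these results, since most rises lay below the median level, and 7 or 8 arrays a side and slides that held 1 genotype each limit the rest. GR loss called 421 genes and 213 followed GR after quantile normalisation, 8 and 8 with normexp correction, and 494 genes were called with slide as a random block. Requiring a call of the same direction in each MR state, in place of the additive call and the separation of arrays, gave 80 genes, 77 of them among the 330. Without GREmx1-cre replicate 1 and MREmx1-cre replicate 2 together, added after seeing the data, GR loss called 524 genes. GR loss with MR called 467 genes after quantile normalisation, 440 with median scaling, 13 with normexp correction, 471 with no filter and 414 without both arrays. Without MR the count was 13669 with normexp correction. The interaction called 182 genes with median scaling, 1 with normexp correction, 138 with no filter and 178 without both arrays. Leaving out 1 array at a time gave 462 to 808 genes for GR loss, 282 to 438 that followed GR, 266 to 782 with MR, 230 to 758 without MR and 83 to 434 for the interaction. The replicate block changed the counts to 861 called and 305 that followed GR, and of the genes named it ended 4 calls. Arrays of the same number correlated by 0.07 in the median of 21 pairs (range -0.03 to 0.19, 6 over 0.1). Arrays of different numbers correlated by -0.02 in 63 pairs (1 over 0.1). The replicate number was also the array's position on its slide, so effects of number and position cannot be told apart. The labels do not pair the samples, and the main fit held no such block. With normexp correction the sign turned for Gm9895 (0.28), Apoc3 (0.46) and the Crnde interaction (0.16), and 56 further calls were lost. The Fkbp5 value, never called, was -0.024 with median scaling, -0.29 over all probes and -0.10 to 0.10 with 1 array left out. The stricter filter on dim probes changed no call of the genes named. The cause of these differences was not tested.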
